A study of Mus musculus with 4 samples.

Results

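The neutrophils of murine lung adenocarcinomas were described from single-cell RNA sequencing of 2 libraries, KP and KPF1F2, loaded before depletion of CD45-positive and CD31-positive cells. Barcodes with 1000 or more UMIs (unique molecular identifiers), 500 or more genes and no more than 20% mitochondrial UMIs were taken as cells. Neutrophils were chosen by their own UMIs of 8 genes: a cell was a member when S100a8 and S100a9 together made up at least 1% of its UMIs, Csf3r, Cxcr2 and Retnlg together had at least 1 UMI, and Cd3e, Cd79a and Epcam had none. This rule found 475 neutrophils among 7305 cells: 83 of 3797 in KP and 392 of 3508 in KPF1F2. Over all 4 libraries of the series 13493 barcodes passed the quality limits.

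Mice of both genotypes carried KrasFSF-G12D, p53frt and Rosa-FSF-CreERT2 on a mixed 129/B6 strain. KP mice were Foxa1flox/+ and Foxa2flox/+, and KPF1F2 mice were labelled Foxa1flox and Foxa2flox. Tumours were started with Ad5-mSPC-FlpO, a virus in which a promoter of surfactant protein C, a gene of alveolar type 2 cells, drives the Flp recombinase. Tamoxifen at 120 mg/kg, given on 4 consecutive days from week 10, activated Cre, and tumours were dissected from the lungs at week 12. The recombinases were aimed at tumour epithelium, so the neutrophils were host cells, which carry the same floxed alleles. Age, the number of animals and pooling are not given in the labels used here. By its title the series is about Foxa1 and Foxa2 in the growth and identity of Nkx2-1-positive lung adenocarcinoma, and the comparison here asks how neutrophils differed between the 2 kinds of tumour.

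There was 1 library per genotype, so every difference is between 2 libraries, no test was made, and 95% intervals cover counting error only, not the spread between cells or mice. The libraries also differed in other ways. Their titles begin with 18836 (KP) and 18385 (KPF1F2). Levels are CPM, a gene's UMIs per 1000000 UMIs summed over the neutrophils of a library. Xist had 356 CPM in KP and 0 in KPF1F2, and the Y-linked Ddx3y had 0 and 218 CPM, so sex and genotype cannot be told apart. Gm42418, a gene model that collects ribosomal RNA reads, had 19926 CPM in KP and 1469 in KPF1F2 neutrophils, and 25589 and 4613 CPM in all other cells. The interferon list median, described below, lay 0.85 above that of all genes, 0.80 above without genes of chromosomes X and Y, and 0.78 above with CPM taken outside Gm42418, AY036118, Lars2, ribosomal protein and mitochondrial genes. A change of the CPM total moves both medians nearly alike, so the last value could hardly differ. Leaving out genes of chromosomes X and Y cannot show effects of sex on other genes, which were not tested.

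Neutrophils are short-lived granulocytes that are made in the bone marrow, leave it under control of Cxcr2 and Cxcr4, and carry ready-made granules of proteases and antimicrobial proteins. They fill primary, then secondary, then tertiary granules as they mature, so transcripts of early granule proteins mark immature cells. In lung tumours of mice, neutrophils with Siglecf have been described as a tumour-associated state with Csf1, Xbp1 and other genes that blood neutrophils lack. Interferon raises a shared set of antiviral genes in neutrophils as in most cells.

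Of 22 interferon-list genes compared, 9 were at least 2-fold higher in KPF1F2 neutrophils, beside 4% of all genes, and 6 were lower by less than 2-fold. Promoters of 3 genes of the list are shown first. Each is the 250 bases before the gene's start in RefSeq (GRCm38.p6). Capitals mark GAAA, any 2 bases and GAAA again, on either strand, the core of the element that interferon-activated factors bind. Isg15, an interferon-induced ubiquitin-like protein with the largest fold of the members compared, is shown from chr4:156200819-156201068 on the minus strand. Ifitm2, an interferon-induced membrane protein and the most abundant gene of the list that was at least 2-fold higher, is shown from chr7:140955962-140956211 on the minus strand. Ifit3, a partner of the RNA-binding protein Ifit1 that had no UMI in KP neutrophils, is shown from chr19:34583279-34583528 on the plus strand.
Isg15: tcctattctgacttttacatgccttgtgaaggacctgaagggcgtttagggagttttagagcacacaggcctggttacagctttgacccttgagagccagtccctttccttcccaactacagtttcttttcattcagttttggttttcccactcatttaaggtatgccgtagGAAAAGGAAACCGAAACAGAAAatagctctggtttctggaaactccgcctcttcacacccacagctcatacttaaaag
Ifitm2: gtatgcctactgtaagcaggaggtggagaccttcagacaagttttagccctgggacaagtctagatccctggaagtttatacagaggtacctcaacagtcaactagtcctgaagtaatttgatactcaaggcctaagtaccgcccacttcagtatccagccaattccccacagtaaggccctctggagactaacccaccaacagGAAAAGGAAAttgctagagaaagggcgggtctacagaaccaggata
Ifit3: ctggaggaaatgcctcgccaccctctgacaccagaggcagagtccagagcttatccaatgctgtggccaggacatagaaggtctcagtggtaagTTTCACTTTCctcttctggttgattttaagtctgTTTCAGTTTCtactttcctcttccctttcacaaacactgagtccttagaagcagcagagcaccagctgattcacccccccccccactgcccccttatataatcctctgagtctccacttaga
The 3 matches of Isg15 start 78, 72 and 66 bases before the gene's start and overlap each other. Ifitm2 has 1 match, 46 bases before its start, and Ifit3 has 2, at 156 and 122 bases. In windows of 300 bases (250 before and 50 after the start), 29 of 60 interferon-list genes (48.3%) held the motif, against 1079 of 27025 genes with a window (3.99%). The promoters shown are examples with a match. Ifitm1, the most abundant gene of the list, has none, nor do Irf7, Isg20 and Sp100, which were at least 2-fold higher. A match is a description of the letters in the window, and binding was not measured.

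The neutrophil share of cells was 2.19% (1.74 to 2.70) in KP and 11.2% (10.2 to 12.3) in KPF1F2, a ratio of 5.11 (4.02 to 6.56). The ratio depends on the S100 range: it was 2.53 for cells with a share from 1% to under 5% and 7.63 for those with 5% or more. The intervals of the shares do not overlap. Shares of barcodes depend on dissociation and on how many other cells were recovered, and epithelial cells, which had Epcam but no Cd3e, Cd79a or Csf1r and an S100 share under 1%, numbered 714 and 225. Neutrophils were small in RNA content: the median was 3171 UMIs and 1121 genes per cell in KP and 3015 UMIs and 924.5 genes in KPF1F2. The sums behind the levels below were 289177 and 1256985 UMIs. No barcode was shared by the neutrophils of the libraries. After depletion 1 neutrophil was left in each genotype, and these were not compared.

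Many markers of natural killer cells, eosinophils and dendritic cells were at or near 0. All 7 natural killer cell markers had 0 UMIs in both libraries, as did Epx, Prg2, Il5ra and Ear6 of 7 eosinophil markers. Of 10 dendritic cell markers 8 in KP and 7 in KPF1F2 had none. Some markers of other leukocytes were present: the T cell marker Cd3d had 79.5 and 138 CPM, and the mast cell marker Kit 51.9 and 3.98. Most others of these lists were at or near 0. Of 7 T cell markers measured 5 in KP and 3 in KPF1F2 had no UMI, Cd3e by the rule. Of 10 basophil and mast cell markers 9 in KP and 8 in KPF1F2 had none. Csf3r, the receptor for granulocyte colony-stimulating factor and part of the rule, had 1449 CPM in KP and 1497 in KPF1F2. Among T cells, B cells, mononuclear phagocytes and epithelial cells of both libraries its highest level was 19.4 CPM, in KP phagocytes. Summed macrophage markers stood at 484 and 314 CPM, and monocyte markers at 788 and 744 CPM. Only 47 of 83 KP and 275 of 392 KPF1F2 members had no UMI of C1qa, C1qb, C1qc, Csf1r, Marco or Flt3. Epithelial markers summed to 1968 CPM in KP and 360 in KPF1F2. Sftpc, the surfactant gene of alveolar type 2 cells, gave 1643 and 142 CPM of this, and Scgb1a1, a club cell gene, 114 and 184. T cells of the same libraries held 1079 and 416 CPM of Sftpc, and 73.2 and 135 CPM of Scgb1a1. Free RNA was not measured in empty droplets. With 5% free RNA subtracted from the counts the interferon median lay 0.86 above that of all genes. Genes highest in neutrophils over T cells, B cells, phagocytes and epithelial cells in both libraries, besides those of the rule, were Stfa2l1, Ly6g, Asprv1, Ngp, Il1f9 and Stfa1, each at least 7.11 log2 units above the highest of the 4.

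The S100 proteins, which the rule used, varied widely among members and between libraries, and their values are a description. S100a8 and S100a9, the calcium-binding subunits of calprotectin, made up 1.06% to 29.7% of a cell's UMIs in KP (median 5.60%) and 1.07% to 32.6% in KPF1F2 (median 13.1%). At a share of 10% or more stood 18 of 83 KP neutrophils (21.7%, 13.4 to 32.1) and 238 of 392 KPF1F2 neutrophils (60.7%, 55.7 to 65.6). Just inside the limit, at 1% to under 2%, were 22 and 39 cells. Just outside, at 0.5% to under 1%, were 17 and 24 cells that met the rest of the rule. Csf3r, which is part of it, stood at 1045 and 1212 CPM there. There was no gap in the S100 share at the limit.

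**Figure D1:**
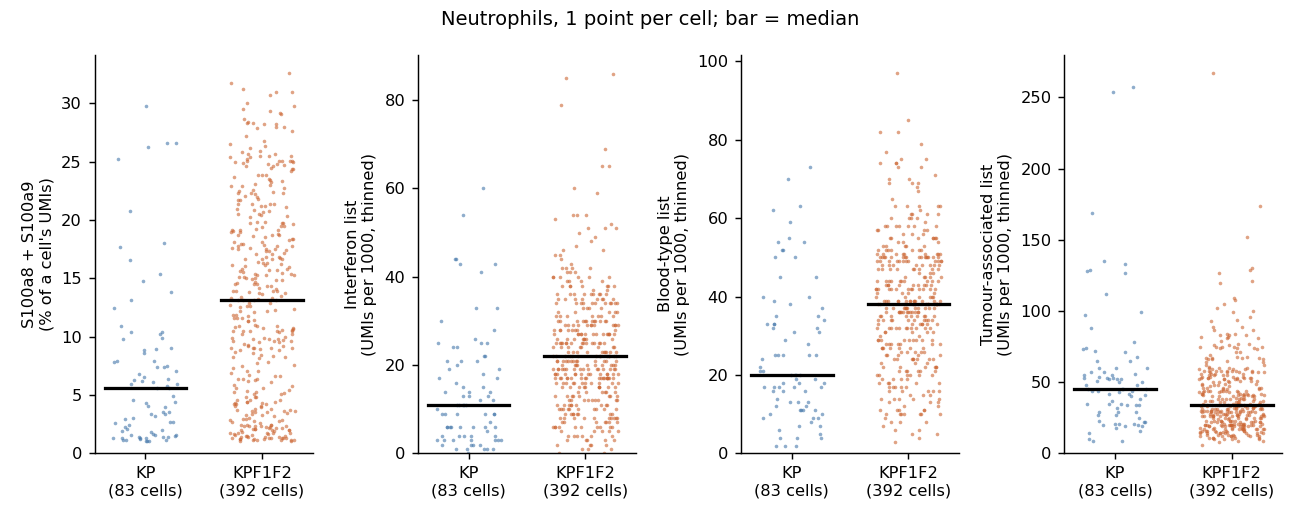
Each point is 1 neutrophil, by library, with a bar at the median. The panels show the S100a8 and S100a9 share of UMIs and the UMIs of the interferon, blood-type and tumour-associated lists after each cell was thinned to 1000 UMIs. KPF1F2 cells have a higher median S100 share (13.1% against 5.60%) and interferon sum (22 against 11 UMIs), with wide overlap. Most UMIs of the interferon list came from Ifitm1, Ifitm2 and Ifitm3.

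Maturity was read from granule genes. Primary granule genes of promyelocytes were nearly absent: Mpo, Elane, Ctsg and Ms4a3 had 0 UMIs in both libraries, which allows up to 10.4 CPM in KP and 2.39 in KPF1F2. Prtn3 had 2 UMIs in each. The members above the level compared were Srgn, a proteoglycan that mature cells also make, and Ctsc, a protease activator at 190 and 43.8 CPM. Secondary granule genes varied among themselves. The list summed to 9831 and 9489 CPM and gave a median of 5 UMIs per 1000 in KP cells and 7 in KPF1F2 cells. Its median fold over 13 of 17 members was −0.26, which is 0.03 above all genes, and 0.39 with TMM and 0.43 with DESeq2 factors, so it has no single direction. Lcn2, an iron-sequestering protein, had a UMI in 37 of 83 and 255 of 392 cells, at 2061 and 2442 CPM. Camp and Ngp came from few cells. Camp, an antimicrobial peptide, had 55 UMIs in 7 KP cells and 123 UMIs in a single KPF1F2 cell. Ngp, another secondary granule protein, had 161 UMIs in 6 KP cells and 224 in 8 KPF1F2 cells, of which 212 were in 1 cell. Ltf, lactoferrin, stood at 55.3 and 46.1 CPM. Mki67, a gene of dividing cells, had 10 and 8 UMIs. The KPF1F2 levels of Camp and Ngp thus rest on 1 cell each or nearly so.

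Later granule and surface genes were present in part of the cells. Ly6g, the surface protein used to stain mouse neutrophils, had a UMI in 17 of 83 KP cells (20.5%) and 128 of 392 KPF1F2 cells (32.7%). With every cell thinned to 1000 UMIs the shares were 8.43% (3.46 to 16.6) and 19.4% (15.6 to 23.7), and 0% of lymphocytes. Its CPM values, 308 (247 to 379) in KP and 372 (339 to 408) in KPF1F2, had overlapping intervals. Mmp8, the collagenase of neutrophil granules, was found in 12.0% (5.93 to 21.0) and 20.4% (16.5 to 24.7) of thinned cells at 263 and 335 CPM. Both transcripts had a lower share of cells in KP, but the share intervals of the libraries overlap for both. Their summed levels were close. Mmp9, a gelatinase of tertiary granules, stood at 1179 and 920 CPM, and Cd177, a surface partner of granule proteases, at 363 (297 to 440) and 183 (160 to 208) CPM.

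Within each library, levels of blood-type and tumour-associated genes varied with the S100 share in opposite directions. From the range of 1% to under 2% to the range of 10% or more, Retnlg, a resistin-like protein of blood neutrophils, went from 105 to 35174 CPM in KP and from 206 to 12358 in KPF1F2. Since Retnlg was part of the rule, its level is a description only. Mmp8 went from 0 in both libraries to 819 CPM in KP and 471 in KPF1F2, and Ly6g from 0 and 9.82 CPM to 1012 and 513. Several genes of the tumour-associated state were lowest in the highest range. Siglecf, a sialic acid receptor, stood at 255, 442, 184 and 60.2 CPM over the 4 ranges in KP and at 265, 157, 141 and 40.3 in KPF1F2. Car4, a carbonic anhydrase also found in alveolar macrophages, stood at 959, 1403, 1290 and 0 CPM in KP and at 1100, 548, 364 and 80.6 in KPF1F2. Csf1, the macrophage growth factor, went from 779 to 60.2 CPM in KP and from 412 to 18.3 in KPF1F2. Ccl3, a chemokine for monocytes, stood at 6470 and 4153 CPM in the lowest range and at 24.1 and 637 in the highest. The ranges were cut from the S100 share, and the members are cells of 1 library, so the gradients have no replicate check.

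**Figure D2:**
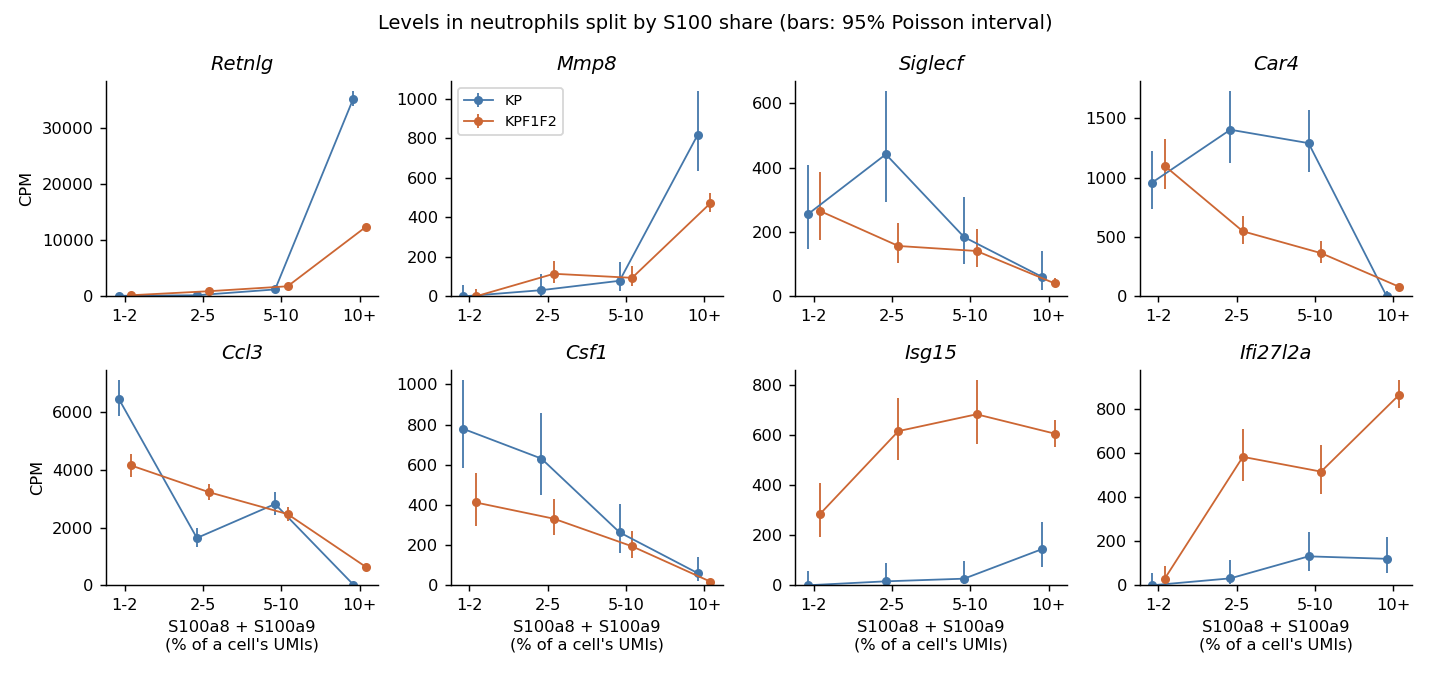
Levels of 8 genes (CPM, with 95% Poisson intervals) in neutrophils of each library, split by the share of UMIs in S100a8 and S100a9. Retnlg and Mmp8 are highest at 10% or more, Siglecf, Car4, Ccl3 and Csf1 are lowest there in both libraries, and Isg15 is higher in KPF1F2 in all 4 ranges.

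Cells were also split by single genes. The 17 KP neutrophils with a Siglecf UMI after thinning had a median S100 share of 2.71%, and the 66 without 6.27%. In KPF1F2 the 25 with and 367 without had 4.42% and 13.9%. Thinned Xbp1, a factor of the secretory stress response, stood at 1235 CPM with Siglecf and 424 without in KP, and at 640 and 294 in KPF1F2. The tumour-associated list did not follow Siglecf in KP: its thinned sum was 51941 CPM in cells with Siglecf and 56833 in cells without, against 43080 and 40689 in KPF1F2. Cells with an Mmp8 UMI had medians of 19.2% and 20.4% S100 share. The eosinophil genes Epx and Prg2 had no UMI in the neutrophils of either library. Siglecf and Car4 are also alveolar macrophage genes. The 11 alveolar macrophage markers summed to 1259 and 390 CPM, of which Car4 gave 868 and 263. Pparg was at 0 in KP and Krt79 in KPF1F2, so 10 of 11 had UMIs in each library, but some had very few. Marco and Krt79 had 1 UMI each in KP. In KPF1F2 Marco had 2 UMIs, and Fabp1, Ear1 and Pparg had 1 each. Ear2 (41.5 and 15.9 CPM), Plet1 (41.5 and 9.55) and Atp6v0d2 (24.2 and 3.98) were higher in KP, like Siglecf and Car4. In members with no UMI of C1qa, C1qb, C1qc, Csf1r, Marco or Flt3 the log2 ratio of KPF1F2 to KP was −1.09 for Siglecf, against −1.33 in all members. The median of the tumour-associated list was −0.76 there, against −0.58. The part of alveolar macrophages in the results was not tested.

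Between the libraries, interferon-response and blood-type lists had higher medians in KPF1F2 neutrophils and the tumour-associated list a lower one. Il1b and Cxcl2 were nearly level in CPM. Of 2248 genes compared (mean of at least 50 CPM and 30 UMIs in all), 90 (4%) were higher in KPF1F2 by 2-fold or more and 309 (13.7%) were lower by 2-fold or more, and 33.5% lay above 0. Folds are log2 ratios, KPF1F2 to KP, of levels to which 1 CPM was added. The median of all genes was −0.29, so the list medians below are also given relative to it. The split depends on the scaling: it was 403 higher and 66 lower with TMM factors, 453 and 59 with DESeq2 size factors, and 162 and 160 with TMM factors from the compared genes only. Those scalings moved the median of all genes up by 0.69, 0.75 and 0.30, so small negative folds can change sign under them.

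**Figure D3:**
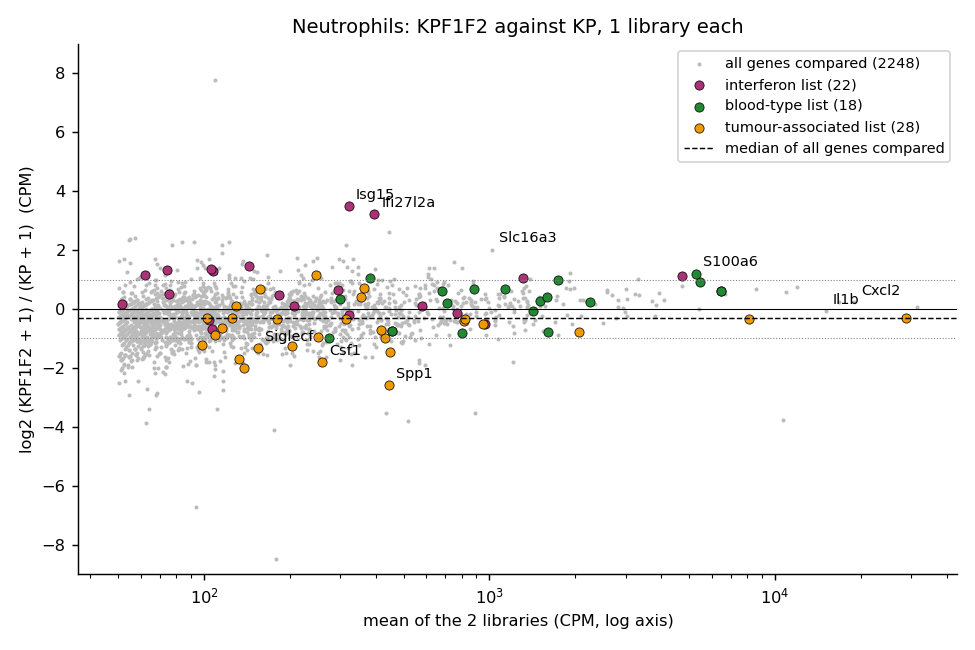
Log2 fold of KPF1F2 over KP against mean level (CPM, log axis) for the 2248 genes compared, with 3 lists in colour and the median of all genes dashed. Of the coloured genes Isg15 and Ifi27l2a have the highest folds, Ddx3y and Xist lie farthest out, and tumour-associated genes such as Spp1, Csf1 and Siglecf lie below −1.

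Most of the interferon-response genes compared stood higher in KPF1F2 neutrophils. Isg15 (chromosome 4, 156199424 to 156200818, minus strand) had 51.9 CPM (29.0 to 85.6) in KP and 590 (549 to 634) in KPF1F2, a ratio of 11.4 (6.85 to 20.4). Ifi27l2a (chromosome 12, 103442167 to 103443680, minus strand), an interferon-induced mitochondrial protein, stood at 76.1 (47.7 to 115) and 714 CPM (668 to 763), a ratio of 9.39 (6.16 to 15.1). The intervals of the libraries lie far apart for both genes. With cells thinned to equal depth 4.82% (1.33 to 11.9) of KP and 24.7% (20.5 to 29.3) of KPF1F2 neutrophils had an Isg15 UMI, against 1.23% and 4.73% of lymphocytes (T and B cells, median depths of 4897 and 4142 UMIs). Unthinned, the neutrophil shares were 8.43% and 40.3%.

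Of 79 listed interferon genes 22 were abundant enough to compare. Their median fold was 0.55, which is 0.85 above the median of all genes, with 9 members higher by 2-fold or more, 0 lower by as much, and 16 above 0. With every cell thinned to 1000 UMIs the list median was 0.052, beside −0.15 for all genes. The other 2-fold members were Rtp4, a chaperone for receptors (76.1 and 212 CPM), Isg20, an exonuclease (58.8 and 154), Irf7, the factor that amplifies type I interferon (41.5 and 107), Sp100, a nuclear body protein (62.2 and 153) and Oas3, a sensor of double-stranded RNA (38.0 and 85.9). The abundant membrane proteins Ifitm2 (2960 and 6496 CPM) and Ifitm3 (854 and 1776) completed the 9. Ifitm1 stood at 5111 and 7813 CPM. The 22 members summed to 13687 and 21985 CPM, and most of this came from Ifitm1, Ifitm2 and Ifitm3. Members that went the other way were Ifitm6 (571 and 342 CPM), Psmb8, a subunit of the immunoproteasome (131 and 81.9) and Slfn2 (1134 and 800). Their folds were −0.74, −0.67 and −0.50, and with DESeq2 size factors those of Ifitm6 and Psmb8 were −0.033 and 0.023. Ifitm6 turned direction with the S100 share: it had 0 and 13 UMIs (0 and 48.5 CPM) in cells under 5%, and 1038 and 422 CPM in the others. Several antiviral genes were scarce. Ifit1 had 0 UMIs in KP and 24 in KPF1F2, at 19.1 CPM, which is at least 1.84-fold higher against a floor of 3 counts. Ifit3 had 0 and 15 UMIs, at least 1.15-fold higher, and Rsad2, viperin, had 1 and 57 UMIs, a ratio of 13.1 (2.26 to 527). Bst2 (20.7 and 19.9 CPM) had overlapping intervals.

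**Figure D4:**
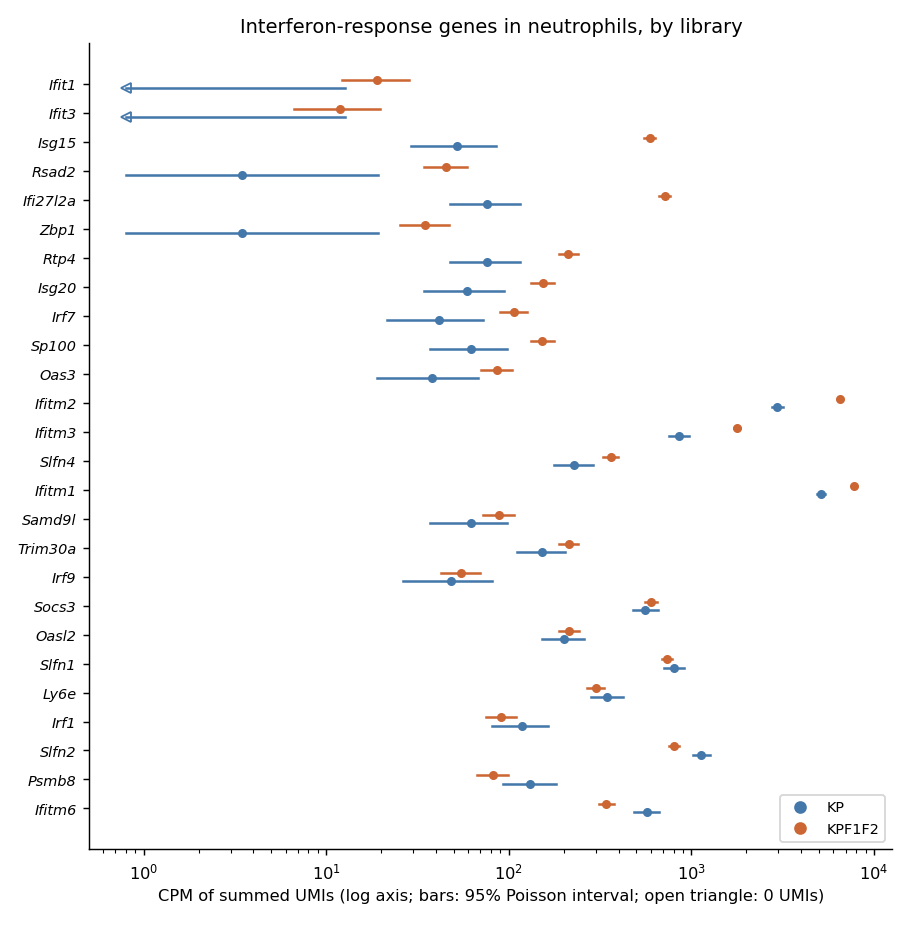
Interferon-response genes in neutrophils of each library: CPM on a log axis with 95% Poisson intervals, for the 22 members compared and 4 scarce ones (Ifit1, Ifit3, Rsad2, Zbp1). The intervals of the libraries are apart for Isg15, Ifi27l2a, Ifitm1, Ifitm2 and Ifitm3, and Ifitm6 and Slfn2 lie the other way.

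The interferon list was then compared within ranges of the S100 share. In cells with an S100 share from 1% to under 5% (41 KP and 96 KPF1F2) the interferon median was 0.96, with 11 of 22 members 2-fold higher, beside −0.11 and 6.98% for all genes. In cells with 5% or more (42 and 296) it was 0.24, with 5 members 2-fold higher and 1 lower, beside −0.21 and 4.72%. The fold of Isg15 was 5.82 and 2.80 in these ranges and that of Ifi27l2a 4.52 and 2.67, while that of Ifitm3 was 1.94 and 0.56. In the lower range Isg15 had 1 UMI and Ifi27l2a 2 UMIs in KP, so their folds there are imprecise. In KP Isg15 stood at 0, 15.8, 26.3 and 144 CPM over the 4 ranges, but 7 of the 12 UMIs of the highest range were in 1 cell, and without it that level was 64.0 CPM. Without that cell the KP level over all ranges was 28.1 CPM and the fold 4.34. In KPF1F2 it stood at 285, 614, 682 and 604 CPM.

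Isg15 and Ifi27l2a were compared with other cells of the same tumours. Isg15 had 25.7 CPM in KP and 78.7 in KPF1F2 T cells, 9.03 and 11.8 in B cells, 20.6 and 20.1 in mononuclear phagocytes (cells with Csf1r), and 22.2 and 79.3 in epithelial cells. The ratios were 11.4 in neutrophils, 3.58 in epithelial cells, 3.06 in T cells, 1.31 in B cells and 0.97 in phagocytes. For Ifi27l2a they were 9.39, 3.16, 1.71, 1.78 and 1.15 in the same order. Whether the ratio differs between cell types could not be tested with 1 library each. Interferon transcripts were uneven among cells: the list gave 2 UMIs per 1000 at the 10th and 32.4 at the 90th percentile of KP cells, and 7 and 39 in KPF1F2.

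Promoter motifs were set beside these folds. Of the 9 members that were 2-fold higher 7 had a promoter window, and 4 of them held the motif (Isg15, Ifitm2, Ifitm3 and Oas3). Of the 12 compared members that were not 2-fold higher and had a window, 1 held it, Trim30a. Among all 1738 compared genes with a window 4.60% did. Among the 41 listed genes below the level compared, 24 held it. Irf7, Isg20 and Sp100 had no match in their windows.

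Cytokine genes were mixed, with a median fold of −0.00 over 20 members (0.29 above all genes), 2 higher by 2-fold or more and 3 lower by as much, beside 4% and 13.7% of all genes. The share of lower members is near that of all genes. The 2 most abundant were nearly level in CPM. Il1b, the inflammatory cytokine interleukin 1 beta, had 15354 CPM (14906 to 15812) in KP and 14734 (14523 to 14948) in KPF1F2, and had a UMI in 82 of 83 and 392 of 392 cells. Cxcl2, a chemokine that draws neutrophils through Cxcr2, stood at 17418 and 20403 CPM, a ratio of 1.17 (1.14 to 1.21). Over all settings described below, the fold ran from −0.15 to 0.65 for Il1b and from 0.14 to 0.93 for Cxcl2. Higher in KPF1F2 were Thbs1, the matrix protein thrombospondin 1, at 373 and 1130 CPM, and Cxcl1, another Cxcr2 ligand, at 34.6 and 102, the latter with UMIs in 2 KP and 33 KPF1F2 cells. Osm, a cytokine of the interleukin 6 family, stood at 405 and 689 CPM, and Tnf at 121 and 193.

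The 3 members lower by 2-fold or more were Csf1, Hbegf and Il1a. Csf1 had 405 CPM (335 to 485) in KP and 115 (97.3 to 136) in KPF1F2, and 19.3% (11.4 to 29.4) and 4.85% (2.94 to 7.47) of thinned cells had a UMI. Hbegf, a ligand of the epidermal growth factor receptor, stood at 149 and 26.3 CPM. Il1a, interleukin 1 alpha, stood at 280 and 95.5 CPM, but its fold was 0.13 in cells with an S100 share under 5% and −2.99 in the others. Il1rn, the antagonist of the interleukin 1 receptor, stood at 1262 and 679 CPM, Ccl3 at 2600 and 1512, and Ccl4 at 1117 and 788. The folds of Ccl3 and Ccl4 were −0.20 and −0.31 in the lower S100 range and −0.51 and −0.11 in the upper range, smaller than over all cells (−0.78 and −0.50). Ccl4 changed sign with an S100 share of at least 2% (0.50), and Ccl3 and Ccl4 were 0.040 and 0.54 with no S100 limit but at least 3 receptor UMIs. With TMM factors the cytokine median was 0.65, so the list has no single direction over the scalings.

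**Figure D5:**
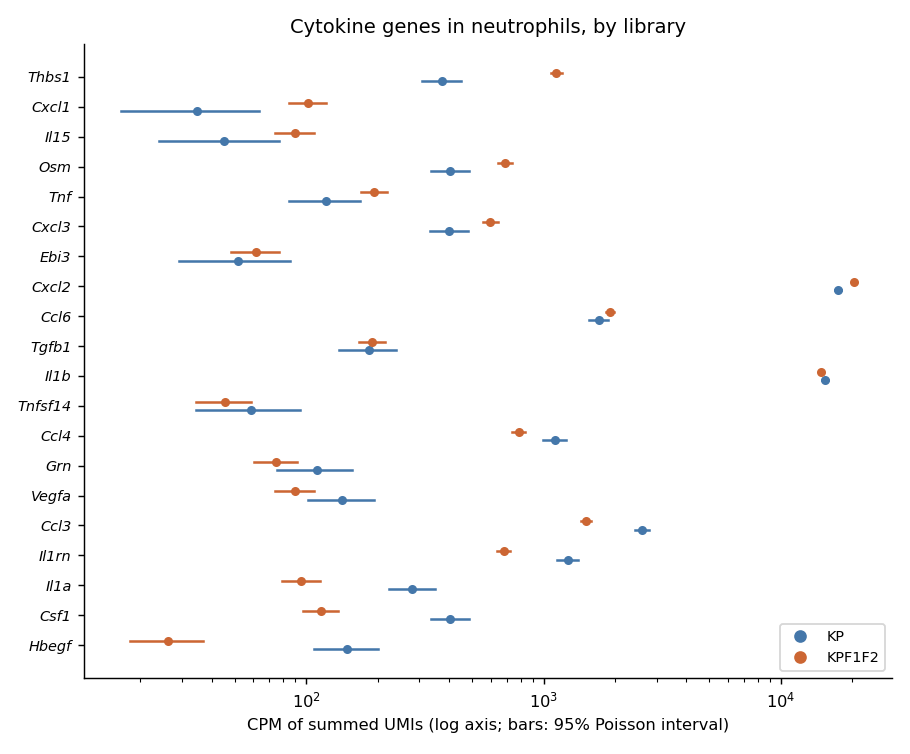
The 20 cytokine genes compared in neutrophils of each library: CPM on a log axis with 95% Poisson intervals, ordered by fold. Il1b and Cxcl2 are the most abundant and nearly level in CPM, Thbs1 and Cxcl1 are higher in KPF1F2, and Hbegf, Csf1 and Il1a are lower.

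Blood-type genes, which circulating neutrophils express, stood higher in KPF1F2, with a median of 0.38 over 18 members (0.68 above all genes), 13 above 0, 3 higher by 2-fold or more and 0 lower by as much, beside 4% and 13.7% of all genes. S100a6, a calcium-binding protein, stood at 3213 and 7381 CPM, and Slpi, a protease inhibitor, at 1162 and 2328. Klf2 (2026 and 1179 CPM) and Txnip (1027 and 581) lay on the other side. The list's median was 0.78 in cells under 5% S100 share and 0.20 in the others, beside −0.11 and −0.21 for all genes. Under 5%, 5 of the 18 members were 2-fold higher and 0 lower, beside 6.98% and 10.7% of all genes. At 5% or more, 0 were higher and 3 lower, beside 4.72% and 13.97% of all genes. The share of lower members there is near that of all genes.

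Tumour-associated genes stood lower in KPF1F2, with a median of −0.58 over 28 members (0.29 below all genes), 8 lower by 2-fold or more, 1 higher by as much and 5 above 0, beside 13.7% and 4% of all genes at 2-fold; with TMM and DESeq2 factors the median was 0.075 and 0.12. Siglecf had 221 CPM (170 to 283) in KP and 87.5 (71.9 to 106) in KPF1F2, and 20.5% (12.4 to 30.8) and 6.38% (4.17 to 9.27) of thinned cells had a UMI, against 0.767% and 0.249% of lymphocytes. Its fold within the S100 ranges was −0.80 and −1.04, against −1.33 overall. Ltc4s, leukotriene C4 synthase, stood at 204 and 62.1 CPM. Spp1, osteopontin, stood at 764 CPM in 24 KP cells and 126 CPM, but its fold was −3.49 under 5% S100 share and 0.20 above. Members on the other side were Rab20, a vesicle GTPase (152 and 341 CPM), and Cxcr4 (277 and 450). Within the S100 ranges the list median was −0.30 and −0.37, beside −0.11 and −0.21 for all genes. Under 5% S100 share, 4 of the 28 members were 2-fold higher and 2 lower, beside 6.98% and 10.7% of all genes. At 5% or more, 1 was higher and 8 lower, beside 4.72% and 13.97% of all genes.

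Receptor genes were mixed. Of 50 receptors compared 6 were higher by 2-fold or more and 5 lower by as much, beside 4% and 13.7% of all genes, with a median of 0.05 (0.34 above all genes). Among the 6, C5ar1, the receptor of complement C5a, stood at 339 and 893 CPM, Tlr2 at 187 and 508, Fpr1, a receptor of bacterial peptides, at 118 and 332, and Cd300ld at 118 and 363. Lower were Tgfbr1, the type I receptor of TGF-beta (176 and 42.2 CPM), and the inhibitory Fc receptor Fcgr2b (429 and 173). The interferon receptor subunits Ifngr1 (235 and 243 CPM) and Ifnar2 (76.1 and 97.1) had overlapping intervals, and Ifngr2 stood at 152 and 73.2 CPM.

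Other genes of suppressive or metabolic function were read the same way. Arg2, an arginase, stood at 391 and 827 CPM and Ptgs2, the prostaglandin synthase Cox-2, at 595 and 1158. Cd274, the checkpoint ligand PD-L1, stood at 142 (102 to 192) and 77.2 CPM (62.6 to 94.1). Slc16a3, a lactate exporter, had the largest fold of 23 glycolysis and hypoxia genes, at 405 and 1638 CPM, with UMIs in 47 of 83 and 345 of 392 cells. The median of that list was 0.04, and Hk2, a hexokinase, stood at 86.5 and 24.7 CPM. Of 14 survival genes compared 0 were higher and 3 lower by 2-fold or more, beside 4% and 13.7% of all genes. The 3 were Bax, a promoter of apoptosis (118 and 29.4 CPM), Bcl2a1a (885 and 246) and Bcl2a1d (488 and 169). Bcl2a1a and Bcl2a1d are near-identical copies of an anti-apoptotic gene whose counts may be split by the authors' counting, so they may not count as separate genes.

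A ranking of all genes left out sex-linked marker genes, gene models, rule genes, and ribosomal, mitochondrial, immunoglobulin, T cell receptor and haemoglobin genes. It also left out genes whose ratio interval held 1. Genes with a higher CPM in other cells of the library where they stood higher, such as Sftpc, were left out too. Isg15 and Ifi27l2a led the higher side. They were followed by Vps37b, a subunit of the endosomal sorting machinery (124 and 761 CPM), Bambi (17.3 and 93.1) and F5, coagulation factor V (17.3 and 92.3). Jdp2, a repressor of AP-1 (114 and 514 CPM), and Bcl3, a nuclear NF-kB cofactor (48.4 and 183), were also among the first 12, with UMIs in 254 and 154 KPF1F2 cells. The lower side was led by Prss2, a trypsinogen, whose 54 KP UMIs came from 3 cells. Gdpd3, a phosphodiesterase, stood at 332 and 18.3 CPM with UMIs in 27 KP cells, and Stfa2, a cysteine protease inhibitor with near-identical copies, at 204 and 18.3 CPM from 8 and 7 cells. AY036118 and Lars2 were lower in KPF1F2 both in neutrophils (965 and 68.4 CPM, 799 and 67.6 CPM) and in other cells (683 and 69.9 CPM, 763 and 120 CPM), like Gm42418. Havcr2, the checkpoint receptor TIM-3, stood at 156 and 26.3 CPM.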

How the data were processed

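Per the labels' protocols, dissociated tumour cells were sequenced with 10x Genomics 3′ chemistry version 3.1. The deposited matrices hold counts of UMIs per gene and barcode, made by the authors by Cell Ranger (per the file headers version 6.0.0), on build mm10 per the submitters' processing notes. The strand setting and annotation are not stated there. The members and gene lists were chosen with earlier results of these data known, and no doublets were removed (none of the top-scoring barcodes was a neutrophil). Counts were summed over neutrophils per library (python 3.11.15, pandas 2.3.3) and scaled to CPM. Intervals are 95%: exact Poisson for CPM, conditional binomial for ratios and Clopper-Pearson for shares (scipy 1.17.1). Cells were thinned to 1000 UMIs with a fixed seed for shares. Named genes were a fixed set, up to 4 and 2 extreme members of each of 21 lists, and 15 genes high against other cells. The 12 highest and 12 lowest folds after the exclusions given above were added. The text gives those that its results turn on. Other list, marker and sequence genes, such as Car4, Mki67, Jun and Ifitm2, were chosen after their values were seen. Alternatives used edgeR 4.0.16, DESeq2 1.42.0 and scrublet in scanpy 1.11.5 (R 4.3.3). The fold and its intervals were tested on simulated data. Positions come from GENCODE mouse release M21, GRCm38. Some genes of the lists are not reported here.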

Additional observations from a re-analysis of the deposited data

How the results depend on the processing

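No paired analysis was possible because each genotype had 1 library. The share of neutrophils in KP and KPF1F2 was 1.61% and 10.1% with an S100 share of at least 2%, 1.24% and 7.84% in cells with no macrophage or dendritic UMIs, 1.11% and 8.44% at 5% or more and 1.08% and 2.74% from 1% to under 5%. With no S100 limit but at least 3 receptor UMIs and no macrophage or dendritic UMIs it was 2.13% and 8.84%. Genes 2-fold higher and lower numbered 403 and 66 with TMM factors, 453 and 59 with DESeq2 size factors, 162 and 160 with TMM factors from the compared genes, 140 and 650 at a mean of 20 CPM and 40 and 54 at 200 CPM, and 141 were lower from 1% to under 5% S100 share. Of 8429 genes with UMIs in both libraries, 1269 had a single UMI in KP and 612 in KPF1F2. With TMM and DESeq2 factors the medians were 1.21 and 1.25 (interferon), 0.65 and 0.70 (cytokines), 1.04 and 1.09 (blood-type) and, with a change of sign, 0.39 and 0.43 (secondary granule, from −0.26) and 0.075 and 0.12 (tumour-associated, from −0.58). The interferon median was 0.052 with cells thinned to 1000 UMIs, and the blood-type median 0.77 from 1% to under 5% S100 share and 0.66 with TMM factors from the compared genes. The cause of each of these moves was not tested. Relative to all genes, over 23 settings, the main one included, the interferon median lay 0.20 to 1.09 above and the blood-type median 0.39 to 0.88 above. The tumour-associated median lay 0.10 to 0.54 below. Some settings could hardly change these values: scaling moves a list and all genes nearly alike, and leaving out doublets removed 0 neutrophils. Of 70 named genes with a 2-fold difference, Spp1 (0.20 at 5% or more), Il1a (0.13) and Clec4n (0.014, both from 1% to under 5%) changed sign. Of 23 alternatives 6 were chosen after seeing the data: both S100 ranges, no S100 limit, CPM outside Gm42418, AY036118, Lars2, ribosomal protein and mitochondrial genes, TMM factors from the compared genes, and Isg15 without 1 KP cell. Depth limits scarce genes: 3 counts are 10.4 CPM in KP and 2.39 in KPF1F2.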

Other observations

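Cells with the neutrophil receptors also lay below the S100 limit. With at least 3 UMIs of Csf3r, Cxcr2 and Retnlg, an S100 share under 1% and no UMI of C1qa, C1qb, C1qc, Csf1r, Marco or Flt3, there were 38 such cells in KP and 45 in KPF1F2, against 83 and 392 inside the limit. Csf3r, which was used to choose these cells, stood at 1499 and 1336 CPM, so its level is a description only. Siglecf stood at 314 and 193 CPM and Car4 at 1193 and 748.

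Within each library, cells with the most UMIs of the interferon list held fewer tumour-associated transcripts. Most UMIs of that list came from Ifitm1, Ifitm2 and Ifitm3, so the ranking rests mainly on these genes. In KPF1F2 the third of cells with the most interferon UMIs (130 cells, median S100 share 15.1%) held 34177 CPM of tumour-associated genes, and the third with the fewest (130 cells, 6.91%) held 51138 CPM. In KP the 27 cells at each end held 34222 and 70741 CPM, with S100 shares of 8.91% and 2.45%. Cytokine transcripts were also fewer at the interferon-rich end, at 36477 against 52677 CPM in KPF1F2 and 37778 against 45704 in KP. These are ranges of a per-cell sum within 1 library each, thinned to 1000 UMIs, with no replicate check.

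Immediate-early genes were mixed. Fosb had 495 CPM in KP against 176 in KPF1F2, Atf3 had 384 and 123, and Jun had 740 and 359, while Ptgs2, Fosl2 (450 and 855 CPM) and Nfkbiz (488 and 889) lay the other way. Of 36 NF-kB and immediate-early genes compared 1 (Bcl3) was higher by 2-fold or more and 3 (Fosb, Atf3 and Jun) lower by as much, with a median of 0.05; both shares are below those of all genes, 4% and 13.7%.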
